A study of Mus musculus with 8 samples.

Results

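The RNA of 10 genes of protein folding in the endoplasmic reticulum (ER) and of the unfolded protein response (UPR) was examined in mouse lens fiber cells (FC), the elongated cells that form the bulk of the lens. The genes were chosen by name, and a member is the row of the expression table whose gene symbol equals Hspa5, Hsp90b1, Calr, Canx, Pdia3, Pdia4, Xbp1, Atf4, Ddit3 or Dnajb9. All 10 were found, once each, among the 35275 genes listed, and all 10 were among the 9794 genes tested. None of them was left out for a low value.

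The lens FC came from mice that had breathed cigarette smoke (CS) and from untreated control (Ct) mice of the same age, in 8 RNA-Seq libraries, 4 for each group. The strain was C57BL/6 by the labels and C57BL/6J by the study's methods, with no genetic change, and the CS-exposed mice were born in a whole-body smoke chamber and received smoke for 5 hours/day and 5 days/week over 3.5 months, while untreated Ct mice were kept in the animal facility. Each library was a pool of FC from the right eyes of 4 mice, so that a value is an average over mice and over all cells left after the epithelium had been peeled away. By the study's methods each group had 2 male and 2 female replicates, which the labels do not tell apart, and the comparison of groups has no term for sex. The smoke chamber and the animal facility cannot be told apart from the smoke itself.

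Proteins that enter the ER are folded there by chaperones. BiP, the product of Hspa5, holds unfolded chains, and the lectins calnexin and calreticulin hold glycoproteins while disulfide isomerases form their bonds. When unfolded chains build up, the sensors IRE1, PERK and ATF6 set off the UPR, in which XBP1 and ATF6 raise the chaperones and PERK, through eIF2 alpha and ATF4, slows translation and induces Ddit3. The UPR has been studied in the lens because fiber cells make proteins at a high rate and then degrade their ER as they mature.

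ATF6 and XBP1 act on a promoter motif, the ER stress response element (ERSE), spelled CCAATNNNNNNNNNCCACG, and the matches are shown because several chaperones of the list share the motif. RefSeq promoters (GRCm38.p6, from 250 bases before to 50 bases after the start of a gene) were searched on both strands, and all 10 members had a promoter there. The exact motif stood in 4 of the 10, against 39 of 32851 promoters in all (0.119%). With at most 1 mismatch in the letters other than N, it stood in 7 of 10, against 494 of 32851 (1.5%). The matches are written along the motif, with the letters at its defined positions in capitals.
Hspa5, chr2:34772025-34772043, plus strand: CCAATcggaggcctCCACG
Hsp90b1, chr10:86705638-86705656, minus strand: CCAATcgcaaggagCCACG
Hsp90b1, chr10:86705533-86705551, plus strand: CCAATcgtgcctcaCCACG
Calr, chr8:84847075-84847093, plus strand: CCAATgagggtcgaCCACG
Canx, chr11:50325800-50325818, minus strand: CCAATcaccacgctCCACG
Hsp90b1, 1 mismatch, chr10:86705598-86705616, plus strand: CCAATcggaactgtCCAGG
Pdia3, 1 mismatch, chr2:121413873-121413891, plus strand: CCAATcggcggctgCCACA
Pdia4, 1 mismatch, chr6:47813602-47813620, plus strand: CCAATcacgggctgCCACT
Ddit3, 1 mismatch, chr10:127290702-127290720, minus strand: CCAATcagaaagcgGCACG

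Hsp90b1 was the member with the most matches, 2 exact and 1 with a mismatch. They lay within 185 bases just before the annotated gene (GRCm38.p6, chr10:86705510-86705694, minus strand), shown here along the gene, with the letters of the 3 matches in capitals (the later 2 run on the opposite strand, so that they read backwards).
Hsp90b1, upstream: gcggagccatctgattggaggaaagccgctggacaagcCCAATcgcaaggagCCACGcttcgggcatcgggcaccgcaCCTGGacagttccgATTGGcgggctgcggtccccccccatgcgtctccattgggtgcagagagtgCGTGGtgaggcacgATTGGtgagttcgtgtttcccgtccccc
The promoters of Xbp1, Atf4 and Dnajb9 held no match within 1 mismatch. None of the 10 held ERSE-II (ATTGGNCCACG, in 0.0365% of all promoters), the core of the UPR element (TGACGTGG, in 0.676%) or the composite site bound by ATF4 (TGATGNAAT, in 0.965%). These motifs were searched on both strands without a mismatch, and ERSE, ERSE-II and the UPR element share the letters CCACG. A match is a description of the sequence and does not show that a factor binds there, and a missing match says only that these letters are not in this window.

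Levels were compared as FPKM, which sets the reads of a gene against its length and the depth of its library. Every member was expressed, from 8.76 FPKM for Dnajb9 to 75.7 FPKM for Calr (mean of the 8 libraries). The order from high to low was Calr at 75.7, Hspa5 at 73.4, Hsp90b1 at 54.5, Atf4 at 51.5, Pdia3 at 36.4, Canx at 35.1, Xbp1 at 30.9, Ddit3 at 19.9, Pdia4 at 9.82 and Dnajb9 at 8.76 FPKM. Calreticulin, BiP and GRP94 (Hsp90b1) thus stood at the top, calnexin in the middle below Atf4 and Pdia3, and the inducible cochaperone Dnajb9 at the bottom. Within a library, 6 of the 9 neighbouring pairs in this order differed (two-sided exact sign-flip test over the 8 libraries, adjusted over the 9 pairs, p between 0.0176 and 0.0234). The test shows that a difference in FPKM repeats over the libraries, and an error in the length of a gene would repeat as well. Calr and Hspa5 were not separated (Calr higher in 6 of 8 libraries, exact adjusted p = 0.156), nor were Hsp90b1 and Atf4 (5 of 8, exact adjusted p = 0.0804) or Pdia3 and Canx (5 of 8, exact adjusted p = 0.123). Ddit3, which encodes the proapoptotic factor CHOP, was 2.01 times as high as Pdia4 in FPKM.

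**Figure D1:**
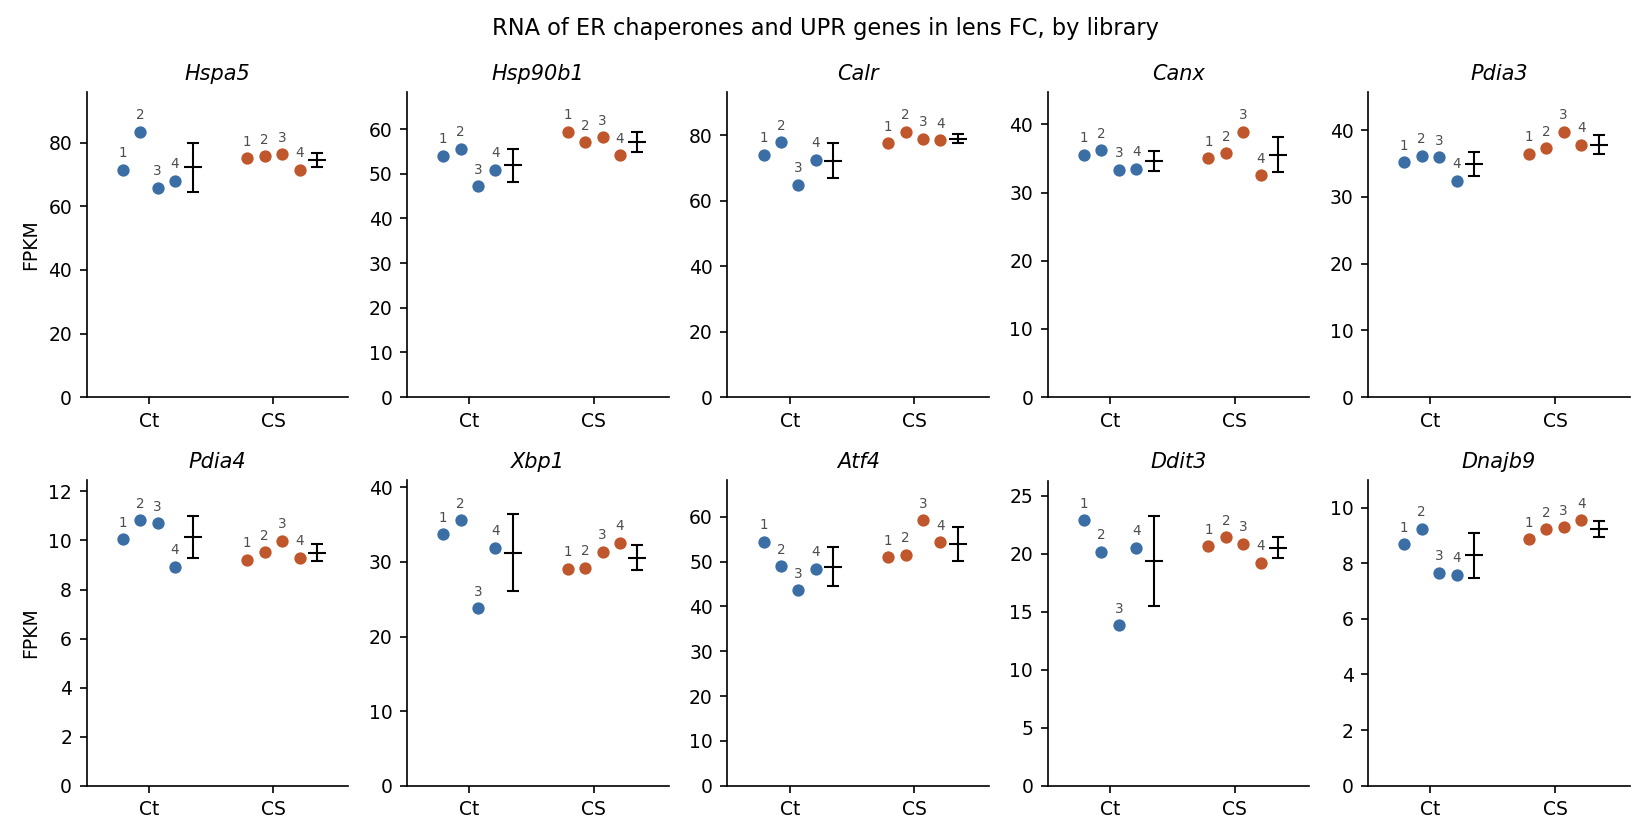
FPKM (y axis, from 0) of each of the 10 members in the 4 libraries of untreated Ct mice (blue) and the 4 of CS-exposed mice (orange), numbered by replicate, with the mean and SD of each group in black. The groups overlapped for every member but Pdia3, and Ct replicate 3 was the lowest library for 6 of 10.

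Before the groups were compared, the libraries were checked against markers of the cells they could hold. The 12 fiber cell markers were present in every library and summed to between 178282 and 190768 FPKM, and the 7 immune markers listed were at or under 0.92 FPKM in sum. Of the markers of plasma cells, which are rich in ER chaperones, the 4 listed summed to between 22.0 and 31.2 FPKM, most of it Sdc1 (21.4 to 27.4 FPKM), while Mzb1 was between 0 and 0.38 FPKM. Igkc of that list lay at 0.17 to 3.20 FPKM in untreated Ct and 2.29 to 4.52 in CS-exposed mice, and Prdm1 was at most 0.11 FPKM. Blood markers reached 22.8 FPKM in sum in CS-exposed replicate 4. Ct replicate 3 stood apart in the sum of the 9 markers of lens epithelium. That sum was 152 FPKM, against 93.6 to 107 in the other Ct libraries and 81.7 to 112 in the CS-exposed ones. Foxe3, a transcription factor of lens epithelium, was at 64.0 FPKM in Ct replicate 3 and at 25.1 to 34.8 in the other Ct libraries. Pax6, Cdh1, Gja1, Pdgfra, Npnt and Slc38a3 were also highest in that library. Cdh2 was not, at 33.3 FPKM against 33.7 to 34.1 in the other Ct libraries, nor was Krt8, at 0.12 FPKM. The sum of the 9 rod photoreceptor markers did not overlap between groups. It lay at 10.4 to 27.1 FPKM in untreated Ct and 30.7 to 85.4 in CS-exposed mice. Among them, Rom1 overlapped (4.20 to 5.90 and 5.37 to 7.22 FPKM), as did Cnga1 (0 to 0.22 and 0.03 to 0.73 FPKM). The 8 markers of pigmented cells summed to 1.13 to 2.52 FPKM in untreated Ct and 2.23 to 6.22 in CS-exposed mice, of which Rpe65 did not overlap (0.03 to 0.19 and 0.29 to 3.31 FPKM). The part of epithelium, rods, pigmented or plasma cells in the results was not tested, and in pooled tissue fewer cells of a type and less RNA per cell cannot be told apart. The members, the genes called and the medians of the lists are therefore given also without Ct replicate 3. The 8 libraries held between 7963641 and 10333650 reads on the tested genes, recovered from the steps of the FPKM.

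Whether smoke moved the ER chaperones and the UPR was asked member by member. Of the 10 members, 2 were higher in CS-exposed mice at an unadjusted p under 0.05, Hsp90b1 and Calr, and none was lower. Over all 9794 genes tested, 4.83% had such a p, 2.75% in the direction of higher and 2.08% in that of lower values in CS-exposed mice. After adjustment over all genes tested none of the 10 had a p under 0.05, as against 0.0102% of all genes, which is 1 gene. The log2 fold change was above 0 for 8 of the 10 members (51.2% of all genes tested), with a median of 0.11 against 0.0043 over all genes. Without Ct replicate 3, none of the 10 had an unadjusted p under 0.05 (4.26% of all genes did) and the median was 0.05. These counts thus rested in part on that library. None had such a p either without CS-exposed replicate 1, 2 or 3 or Ct replicate 4. The loss of the calls was thus not particular to Ct replicate 3.

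Hspa5 (chr2:34771970-34777547) encodes BiP, the main Hsp70 of the ER and the gene most used as a readout of the UPR. It measured 71.5, 83.4, 65.7 and 68.1 FPKM in untreated Ct replicates 1 to 4 and 75.1, 75.7, 76.3 and 71.4 FPKM in CS-exposed replicates 1 to 4. The CS-exposed libraries lay close together and inside the range of the Ct libraries, whose replicate 2 was the highest of all. The log2 fold change was 0.05 ± 0.07 (SE; limma, adjusted p = 0.985), which is a change of 3.80% with a 95% confidence interval from -6.57 to 15.3%. Leaving out 1 library moved the log2 fold change from 0.01 without Ct replicate 3 (limma, unadjusted p = 0.877) to 0.13 without Ct replicate 2 (limma, unadjusted p = 0.0388), which alone of the 8 gave a p under 0.05.

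Hsp90b1 (chr10:86690209-86705509) encodes GRP94, the Hsp90 of the ER, which acts after BiP on selected clients. It measured 54.0, 55.6, 47.2 and 50.9 FPKM in untreated Ct and 59.4, 57.0, 58.2 and 54.1 FPKM in CS-exposed mice, so that 3 of 4 CS-exposed libraries lay above every Ct library. The difference was 10.2% (95% confidence interval 0.63 to 20.8%), a log2 fold change of 0.14 ± 0.06 (SE; limma, unadjusted p = 0.0382, adjusted p = 0.956). The exact permutation test over the 70 assignments of the libraries gave p = 0.0571. When Ct replicate 3 was left out, the log2 fold change was 0.10 (limma, unadjusted p = 0.113). The unadjusted p was also over 0.05 without CS-exposed replicate 1, 2 or 3 or Ct replicate 4 (0.0938, 0.0632, 0.0777 and 0.0797 by limma), where the log2 fold change stayed at 0.12, 0.14, 0.13 and 0.13, and without the variance trend (0.0957), which leaves it at 0.14. Hsp90b1 shares 10.3% of its exon bases with 1810014B01Rik on the opposite strand, which was listed at 0.264 to 1.22 FPKM, and the reads there cannot be told apart where strand was not used.

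Calr (chr8:84841850-84846934) encodes calreticulin, the soluble lectin that binds glycoproteins and calcium in the ER lumen. It measured 74.0, 77.9, 64.8 and 72.5 FPKM in untreated Ct and 77.6, 81.1, 78.9 and 78.5 FPKM in CS-exposed mice. Again 3 of 4 CS-exposed libraries were above every Ct library, and the CS-exposed SD was 1.48 FPKM against 5.46 in untreated Ct, or 2.76 without Ct replicate 3. The difference was 9.52% (95% confidence interval 0.42 to 19.5%), a log2 fold change of 0.13 ± 0.06 (SE; limma, unadjusted p = 0.0414, adjusted p = 0.956; exact permutation p = 0.0571). It was 0.08 with Ct replicate 3 left out (limma, unadjusted p = 0.120). The unadjusted p was over 0.05 also without any 1 of the CS-exposed libraries or Ct replicate 4 (0.0534 to 0.0920 by limma), where the log2 fold change stayed between 0.12 and 0.14, and without the variance trend (0.111), which leaves it at 0.13.

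Canx (chr11:50293961-50325673) encodes calnexin, the membrane-bound partner of calreticulin. It measured 35.5, 36.2, 33.4 and 33.5 FPKM in untreated Ct and 35.0, 35.8, 38.9 and 32.5 FPKM in CS-exposed mice. CS-exposed replicates 3 and 4 were the highest and the lowest of all 8, and the groups overlapped throughout (log2 fold change 0.04 ± 0.06, SE; limma, adjusted p = 0.985). The interval of the change ran from -6.88 to 13.0%, and the log2 fold change was 0.02 with Ct replicate 3 left out (limma, unadjusted p = 0.789). It was -0.0074 without CS-exposed replicate 3 and 0.08 without CS-exposed replicate 4. The difference between Calr and Canx in their response was not tested.

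Of the disulfide isomerases, Pdia3 (chr2:121413775-121438687) encodes ERp57, which works on the glycoproteins held by calnexin and calreticulin. It measured 35.2, 36.2, 36.0 and 32.4 FPKM in untreated Ct and 36.4, 37.3, 39.8 and 37.8 FPKM in CS-exposed mice, and was the one member whose groups did not overlap, as for 3.08% of all genes tested. The gap between the groups, from 36.2 to 36.4 FPKM, was narrow. The exact permutation test gave p = 0.0286, the smallest that 4 against 4 libraries allow, while limma gave a log2 fold change of 0.12 ± 0.06 (SE) with an adjusted p of 0.956 and an unadjusted p of 0.0639. With Ct replicate 3 left out, the log2 fold change was 0.13 (limma, unadjusted p = 0.0582), and no other member was as little moved by that library among those with an unadjusted p under 0.1.

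Pdia4 (chr6:47796141-47813430) encodes ERp72, an isomerase found in complex with BiP and GRP94. It measured 10.1, 10.8, 10.7 and 8.94 FPKM in untreated Ct and 9.21, 9.52, 9.98 and 9.30 FPKM in CS-exposed mice. Ct replicate 4 was the lowest library and the other 3 Ct libraries the highest, and the log2 fold change was -0.09 ± 0.08 (SE; limma, adjusted p = 0.976), opposite in sign to that of Pdia3. With Ct replicate 3 left out it was -0.06 (limma, unadjusted p = 0.502), and with Ct replicate 4 left out -0.15 (limma, unadjusted p = 0.0839). The difference between Pdia3 and Pdia4 was not tested.

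**Figure D2:**
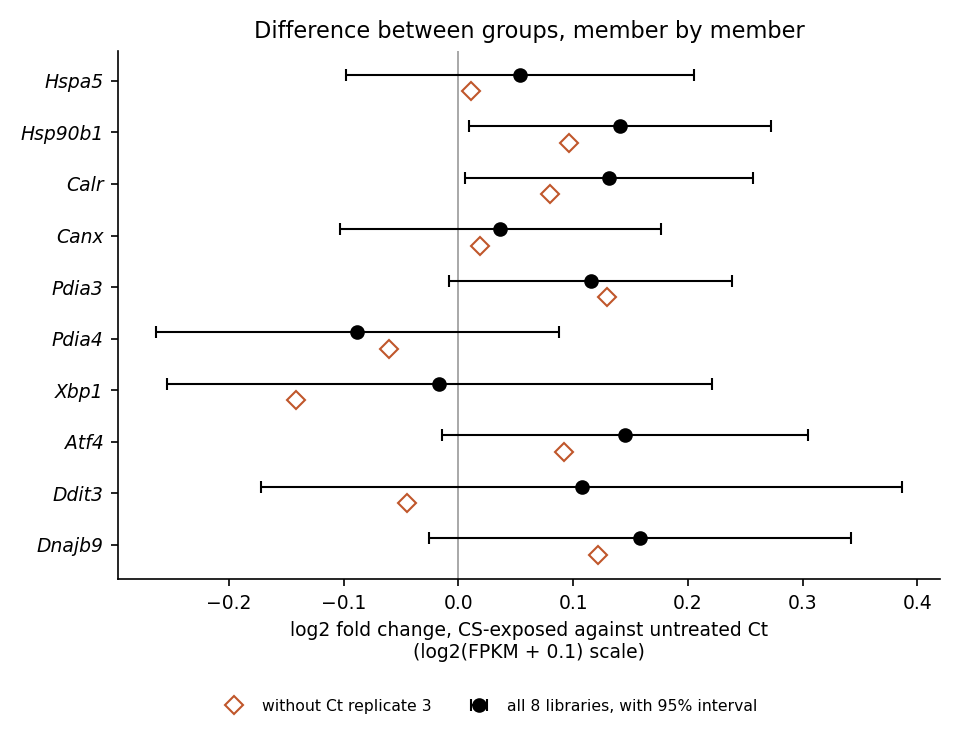
Log2 fold change of CS-exposed against untreated Ct mice on the log2(FPKM + 0.1) scale (x axis) for the 10 members (y axis). Black points show all 8 libraries with the 95% confidence interval, which excluded 0 for Hsp90b1 and Calr, and open diamonds show the value without Ct replicate 3, which lay below the point for 8 members and above it for Pdia3 and Pdia4.

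Dnajb9 (chr12:44205559-44210326) encodes ERdj4, a cochaperone of BiP that is induced through XBP1. It measured 8.68, 9.23, 7.66 and 7.59 FPKM in untreated Ct and 8.87, 9.22, 9.30 and 9.54 FPKM in CS-exposed mice. Ct replicates 3 and 4 were lowest, Ct replicates 1 and 2 lay within or just below the CS-exposed values, and the log2 fold change of 0.16 ± 0.08 (SE) was the highest of the 10 without passing the test (limma, unadjusted p = 0.0851, adjusted p = 0.956). It was 0.12 without Ct replicate 3 or without Ct replicate 4 (limma, unadjusted p = 0.199 and 0.211), and 0.21 without Ct replicate 2 (limma, unadjusted p = 0.0319). Between 256 and 397 reads stood behind a value of Dnajb9, the fewest of the members, and at 256 reads counting alone gives a coefficient of variation of 6.25%.

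Xbp1 (chr11:5520659-5525893) encodes the transcription factor that IRE1 activates by splicing its RNA. It measured 33.7, 35.6, 23.8 and 31.9 FPKM in untreated Ct and 29.1, 29.2, 31.4 and 32.5 FPKM in CS-exposed mice. All CS-exposed values lay within the Ct range, which Ct replicate 3 widened downwards, 29.4% below the mean of the other Ct libraries. The log2 fold change was -0.02 ± 0.11 (SE; limma, adjusted p = 0.995) with all libraries and -0.14 without Ct replicate 3 (limma, unadjusted p = 0.0568). It turned positive, between 0.0038 and 0.05, without CS-exposed replicate 1 or 2 or Ct replicate 1 or 2. A value per gene adds the spliced and the unspliced RNA together, so that the activation of XBP1 was not measured.

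Atf4 (chr15:80255184-80257541) encodes the factor whose translation PERK and other eIF2 alpha kinases permit, a step that RNA levels do not show. It measured 54.4, 49.0, 43.7 and 48.5 FPKM in untreated Ct and 51.0, 51.5, 59.2 and 54.3 FPKM in CS-exposed mice. Ct replicate 1 lay above 3 of the CS-exposed libraries and the other 3 Ct libraries lay below all of them. The log2 fold change was 0.15 ± 0.07 (SE; limma, unadjusted p = 0.0702, adjusted p = 0.956; exact permutation p = 0.171), and 0.09 without Ct replicate 3. With Ct replicate 1 left out it was 0.20 (limma, unadjusted p = 0.0169).

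Ddit3 (chr10:127290774-127296288) is induced by ATF4 and encodes CHOP. It measured 22.9, 20.2, 13.8 and 20.5 FPKM in untreated Ct and 20.6, 21.4, 20.9 and 19.2 FPKM in CS-exposed mice. Ct replicate 3 was 34.7% below the mean of the other Ct libraries, the farthest of any member. The log2 fold change of 0.11 ± 0.13 (SE; limma, adjusted p = 0.985) turned to -0.04 without that library, so that no direction can be given. The annotation of GRCm38 holds 2 gene models named Ddit3 on the same strand, the shorter of which covers 6.1% of the exon bases of the longer. Ddit3 also shares 4.0% of its exon bases with Mars and 0.8% with Gm4189, both on the opposite strand, and counting was not stated to use strand. Reads in these stretches could belong to either model or gene.

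The members varied more among untreated Ct than among CS-exposed libraries. The SD of the log2 values used in the fit was larger in untreated Ct for 9 of the 10, with Canx as the exception. This was so for 49.6% of all genes tested. Without Ct replicate 3 it was still so for 8 of 10 (44.2% of all genes). The members share the same libraries, and the difference from all genes was not tested. The SDs of single members that follow are in FPKM. The SD of Ddit3 was 3.87 FPKM in untreated Ct and 0.930 in CS-exposed mice, but 1.47 in untreated Ct without replicate 3, so that most of the contrast rested on that library. The SD of Hspa5 was 7.85 and 2.19 FPKM, and 8.04 in untreated Ct without replicate 3. Ct replicate 3 was the lowest of the 8 libraries for Hspa5, Hsp90b1, Calr, Xbp1, Atf4 and Ddit3, as it was for 13.3% of all genes tested. Pdia3 and Pdia4 were not low in it, at 36.0 and 10.7 FPKM.

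**Figure D3:**
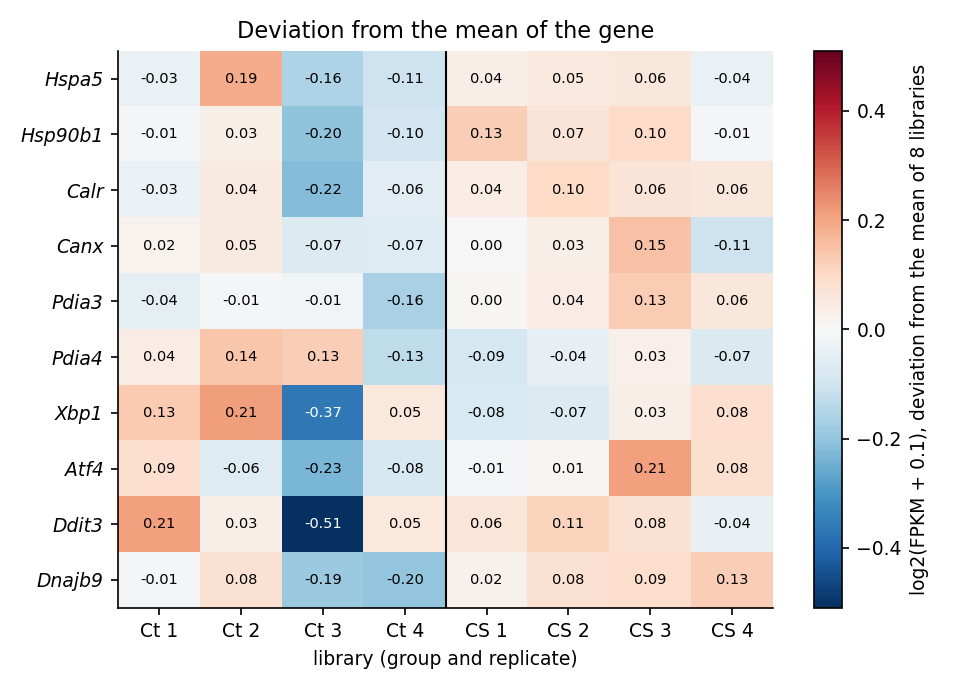
Deviation of each member (y axis) from its mean over the 8 libraries (x axis) on the log2(FPKM + 0.1) scale, with red above and blue below the mean. Ct replicate 3 holds the lowest values, -0.51 for Ddit3 and -0.37 for Xbp1, and the CS-exposed libraries lie between -0.11 and 0.21.

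Whether the members followed BiP from library to library was asked next. Over the 8 libraries, log2(FPKM + 0.1) of Hspa5 correlated with Hsp90b1 at r = 0.764 (exact permutation p = 0.0269, adjusted over the 9 members p = 0.104; rho = 0.762, exact p = 0.0368, adjusted p = 0.165). The value for Calr was r = 0.751 (exact p = 0.0346, adjusted p = 0.104; rho = 0.714, exact p = 0.0576, adjusted p = 0.173), and for Dnajb9 r = 0.747 (exact p = 0.0330, adjusted p = 0.104; rho = 0.595, exact p = 0.132, adjusted p = 0.298). Canx had r = 0.656 (exact p = 0.0742, adjusted p = 0.167) and the highest rank correlation, rho = 0.881 (exact p = 0.00724, adjusted p = 0.0652). None of the 9 relations passed the adjustment. The remaining 5 had r between 0.249 for Pdia4 and 0.599 for Xbp1.

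Within the groups, with each group's mean taken out, r was 0.834 for Hsp90b1, 0.807 for Calr and 0.791 for Dnajb9 (permutation p = 0.00861, 0.0360 and 0.0158, not adjusted). These p-values are approximate, since values centred within a group were permuted over all 8 libraries. The 2 libraries whose Hspa5 lay farthest from the median were Ct replicates 2 and 3. Without both, r was 0.954 for Hsp90b1 (exact p = 0.0139), 0.831 for Calr (exact p = 0.0361) and 0.726 for Dnajb9 (exact p = 0.0847). That of Pdia3 went from 0.431 to 0.825 (exact p = 0.0361, not adjusted), while that of Xbp1 turned from 0.599 to -0.62. The positive value for Xbp1 thus rested on those 2 libraries. Without Ct replicate 3 alone, r was 0.604 for Hsp90b1, 0.596 for Calr and 0.610 for Dnajb9 (exact p = 0.148, 0.167 and 0.172). These 3 kept the sign and lost the unadjusted p under 0.05, while Pdia4 went from r = 0.249 to r = 0.787 (exact p = 0.0345, not adjusted), the highest of the 9 without that library. Which member followed Hspa5 most closely thus changed when Ct replicate 3 was left out. That check was not planned, and no other library was left out alone for the correlations. Over all 45 pairs of members, 39 correlated positively within groups, with a median r of 0.518, which describes values that share libraries and depth and was not tested.

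Of 4693 genes tested whose mean reached 5 FPKM, those most like Hspa5 over the 8 libraries were Mrpl45 (r = 0.947), Exosc2 (r = 0.947), Tbc1d15 (r = 0.931), Sharpin (r = 0.929) and Ahsa1 (r = 0.929). Ahsa1 encodes an activator of cytosolic Hsp90, and Mrpl45 a protein of the mitochondrial ribosome. Of the members, Hsp90b1 came nearest to Hspa5, at place 135, followed by Calr at 150, Dnajb9 at 154 and Canx at 310. The 5 genes were picked as the highest of the 4693 values, so that their place above the members follows from how they were chosen.

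The remaining genes of ER folding and stress were taken from 8 lists with 130 genes in all, of which 116 were tested. At an unadjusted p under 0.05, 6 were higher and 2 lower in CS-exposed mice (6.90% of 116, against the 4.83% of all genes). None passed the adjustment, and 69 of 116 had a log2 fold change above 0. The median over the 116 was 0.03, and without Ct replicate 3 it was 0.03 with 6 genes called.

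Among disulfide isomerases and oxidases other than the members, 3 of 13 genes tested were higher in CS-exposed mice at an unadjusted p under 0.05. None was lower at that p, against 2.75% higher and 2.08% lower over all genes tested. The median log2 fold change was 0.09 (0.07 without Ct replicate 3, with 2 called, against 4.26% of all genes). The 3 were Tmx1, Tmx2 and Tmx3, which encode thioredoxin-related proteins of the ER membrane. Tmx4 of the same family, named after its values were seen, was at 7.34 and 7.29 FPKM in mean, with a log2 fold change of -0.0091 (limma, unadjusted p = 0.923). Tmx3 lay at 8.63 to 9.50 FPKM in untreated Ct and 9.86 to 11.4 FPKM in CS-exposed mice, and Tmx2 at 12.3 to 13.4 and 13.8 to 15.5 FPKM, so that neither gene's groups overlapped. Tmx1 lay at 20.4 to 22.7 and 22.0 to 24.8 FPKM. Their log2 fold changes were 0.20 ± 0.08 for Tmx3, 0.19 ± 0.07 for Tmx2 and 0.14 ± 0.06 for Tmx1 (SE; limma, unadjusted p = 0.0229, 0.0171 and 0.0463, adjusted p = 0.956 for each). Tmx2 and Tmx3 kept an unadjusted p under 0.05 without Ct replicate 3 (0.0409 and 0.0214), and Tmx1 did not (0.114). The isomerase with the highest level, Pdia6, was at 87.7 ± 5.38 FPKM in untreated Ct and 90.5 ± 4.62 in CS-exposed mice (SD, n = 4), and Txndc12 at 41.3 ± 5.27 and 45.3 ± 4.18.

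In ER-associated degradation, which carries misfolded chains back to the cytosol, 2 of 24 genes were higher in CS-exposed mice (unadjusted p under 0.05). None was lower at that p (over all genes tested, 2.75% were higher and 2.08% lower). The median log2 fold change was 0.02 (-0.0012 without Ct replicate 3, with none called, against 4.26% of all genes). The 2 genes, Vimp and Selk, encode selenoproteins of the ER membrane. Derl1, Derl2 and Vcp of the same list, named after their values were seen, had log2 fold changes of 0.03, 0.05 and 0.04 (limma, unadjusted p = 0.651, 0.595 and 0.390). Vimp measured 14.9 to 19.2 FPKM in untreated Ct and 18.0 to 21.1 in CS-exposed mice (log2 fold change 0.22 ± 0.09, SE; limma, unadjusted p = 0.0237, adjusted p = 0.956). Selk measured 58.4 to 76.2 and 73.7 to 76.1 FPKM (0.19 ± 0.07, SE; unadjusted p = 0.0240, adjusted p = 0.956), and its CS-exposed values all lay within the Ct range. Neither had an unadjusted limma p under 0.05 with Ct replicate 3 left out (0.0536 and 0.0730), where the log2 fold change was 0.20 for Vimp and 0.14 for Selk. Herpud1, the gene of this list with the highest level and a classical target of the UPR, was at 86.8 ± 7.41 FPKM in untreated Ct and 88.9 ± 4.51 in CS-exposed mice (SD, n = 4). Nploc4, a cofactor of VCP, did not overlap between groups, at 10.7 to 11.2 and 11.3 to 12.4 FPKM (limma, unadjusted p = 0.159).

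Of the targets of ATF4 and CHOP, 18 of 25 genes passed the filter on low values. At an unadjusted p under 0.05, 1 was higher and 1 lower in CS-exposed mice (2.75% and 2.08% of all genes tested). The median log2 fold change of the 18 was -0.03. Leaving out Ct replicate 3 turned it to 0.05, with 2 genes called (4.26% of all genes). The list thus has no direction that holds without that library. The 7 that did not pass, Asns, Atf3, Cebpb, Chac1, Fgf21, Sesn2 and Trib3, had means under 1 FPKM in both groups and were named after their values were seen. They include genes that are commonly used to show an ATF4 response, among them Trib3 at 0.07 and 0.30 FPKM and Chac1 at 0.31 and 0.14 FPKM (means of untreated Ct and CS-exposed). Atf5, itself a transcription factor of the stress response, lay at 19.9 to 22.1 FPKM in untreated Ct and 22.5 to 24.4 in CS-exposed mice without overlap (log2 fold change 0.15 ± 0.06, SE; limma, unadjusted p = 0.0251, adjusted p = 0.956). Gdf15, a secreted stress cytokine, went the other way, at 2.22 to 4.46 FPKM in untreated Ct and 1.36 to 2.51 in CS-exposed mice (-0.62 ± 0.23, SE; unadjusted p = 0.0178, adjusted p = 0.956). Both kept an unadjusted p under 0.05 without Ct replicate 3 (0.0455 for Atf5 and 0.0189 for Gdf15). Nupr1, the gene of this list with the highest level, was at 149 ± 21.8 and 145 ± 7.83 FPKM, and Ppp1r15a, which restores translation after stress, at 27.8 ± 3.49 and 31.5 ± 3.05 FPKM (SD, n = 4).

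**Figure D4:**
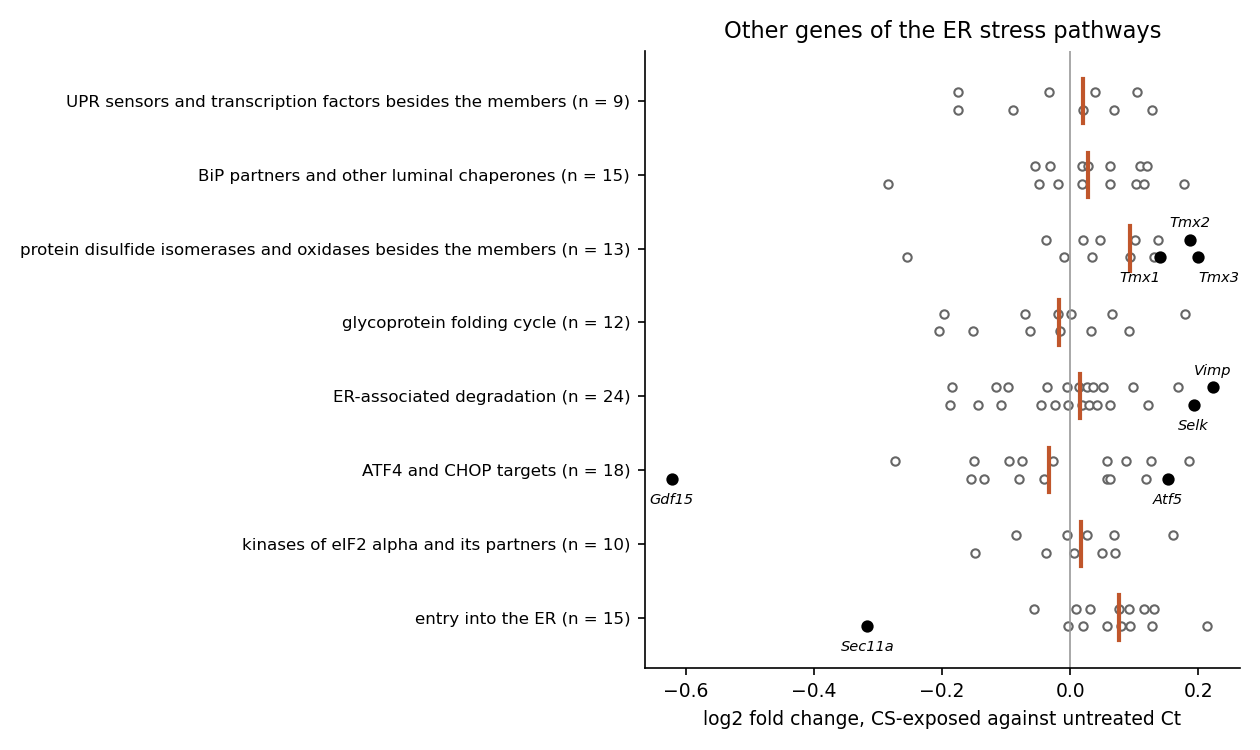
Log2 fold change of CS-exposed against untreated Ct mice (x axis) of each tested gene of the 8 lists (y axis, with the number tested), with filled and named points at an unadjusted p under 0.05 and the median of each list as an orange bar. The medians lie between -0.03 for the targets of ATF4 and CHOP and 0.09 for the isomerases, Gdf15 and Sec11a are the 2 named genes on the left, and the median of the targets of ATF4 and CHOP turned to 0.05 without Ct replicate 3.

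The other 5 lists held 1 gene with an unadjusted p under 0.05 (4.83% of all genes tested had such a p). In entry into the ER, 1 of 15 genes was lower in CS-exposed mice and none higher, Sec11a, a catalytic subunit of the signal peptidase, at 5.57 to 6.61 FPKM in untreated Ct and 4.48 to 5.61 in CS-exposed mice (log2 fold change -0.32 ± 0.10, SE; limma, unadjusted p = 0.00808, adjusted p = 0.956; unadjusted p = 0.00465 without Ct replicate 3). This list had a median of 0.08 (0.07 without Ct replicate 3) and included Sec61b at 55.8 ± 3.35 and 58.2 ± 6.44 FPKM and Ssr3 at 42.0 ± 2.58 and 44.8 ± 2.13 FPKM (SD, n = 4). None was called of the 9 other UPR sensors and factors (median 0.02, and -0.0044 without Ct replicate 3), among them Nfe2l1 at 34.2 ± 2.67 and 34.6 ± 0.813 FPKM and Mbtps1, the protease that cleaves ATF6, at 10.2 ± 0.951 and 10.7 ± 0.267 FPKM. None was called of the 15 partners of BiP and other luminal chaperones (median 0.03, and 0.0049 without Ct replicate 3), where Fkbp2 was at 79.1 ± 5.21 and 76.5 ± 5.03 FPKM and the collagen chaperone Serpinh1 at 37.9 ± 0.712 and 39.6 ± 2.48 FPKM. Sdf2l1 of that list, a component of the BiP complex, was lower in CS-exposed mice at an unadjusted limma p of 0.0240 when Ct replicate 3 was left out (log2 fold change -0.41), and had -0.29 with all libraries (unadjusted p = 0.113). None was called of the 10 genes of eIF2 alpha kinases and their partners (median 0.02, and 0.01 without Ct replicate 3), where Eif2s1, which encodes eIF2 alpha, was at 48.7 ± 1.73 and 51.2 ± 4.64 FPKM and Eif2s2 at 29.0 ± 1.19 and 29.6 ± 1.33 FPKM. None was called of the 12 genes of the glycoprotein folding cycle (median -0.02, and 0.0061 without Ct replicate 3), where Ddost was at 21.5 ± 1.20 and 22.1 ± 2.14 FPKM and Rpn2 at 15.5 ± 0.372 and 14.7 ± 0.748 FPKM. Ganab, the glucosidase that trims glycans ahead of calnexin and calreticulin, did not overlap between groups and was lower in CS-exposed mice, at 9.10 to 11.08 FPKM against 11.09 to 11.8 in untreated Ct, a gap within the value of a few reads (limma, unadjusted p = 0.0790).

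The promoter motif gave another grouping. Symbols of 7268 of the genes tested matched a RefSeq promoter, and 15 of them held an exact ERSE, among which the 4 members Hspa5, Hsp90b1, Calr and Canx and the ER genes Pdia6, Creld2, Dnajc3, Derl3, Syvn1 and Alg12, named after the search. Of these 15 genes, 2 had an unadjusted p under 0.05, Hsp90b1 and Calr, and their median log2 fold change was 0.04 (0.02 without Ct replicate 3, where neither Hsp90b1 nor Calr was called). With at most 1 mismatch, 187 genes held the motif and the same 2 were called (1.07%, against 4.25% of all 7268), with a median of 0.03 against 0.0042. The share called was thus above that of all genes for the exact motif and below it with a mismatch, on counts of 2 genes that are members.

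The replicates were also looked at in 2 sets. Xist, the RNA that coats the inactive X chromosome in female cells, was at or under 0.011 FPKM in replicates 1 and 2 and at 41.1 to 49.0 FPKM in replicates 3 and 4, in both groups alike. With 2 male and 2 female replicates in each group by the methods, the sets differ in sex as far as Xist shows it, and sex and any other difference between the sets cannot be told apart. In replicates 1 and 2 the log2 fold change of Xbp1 was -0.25 (limma, unadjusted p = 0.0133), and in replicates 3 and 4 it was 0.21 (limma, unadjusted p = 0.170). That of Atf4 was -0.01 in the first set (limma, unadjusted p = 0.883) and 0.30 in the second (limma, unadjusted p = 0.0112). The values of Hsp90b1 were 0.09 and 0.19 and those of Calr 0.06 and 0.20, in the same direction in both sets. All 10 members had a more positive value in replicates 3 and 4, the set that holds Ct replicate 3. The median over all genes tested moved the same way, from -0.013 to 0.026, and 45.7% of the calls in the first set and 64.7% in the second were higher in CS-exposed mice. The difference between the sets had an unadjusted p under 0.05 for Xbp1 and Atf4 and an adjusted p of at least 0.856 for every member (limma with an interaction term).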

How the data were processed

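The authors mapped paired reads of 150 bases to GRCm38 with STAR 2.5, assigned them to genes with HTSeq 0.6.1, and deposited the FPKM of every library. The annotation release is not given in the sources used here. The deposited log2 fold change, p-value and adjusted p-value columns, made by the authors with DESeq2, and their group means were not used.

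Groups and replicate numbers came from the sample labels. Genes whose mean reached 1 FPKM in one of the groups entered a two-sided test with limma 3.58.1 (R 4.3.3; lmFit, then eBayes with a variance trend) of log2(FPKM + 0.1), with Benjamini-Hochberg adjustment over the 9794 genes tested. A fold change on this scale understates the change of low genes. The FPKM of a gene are multiples of the value of 1 read, from which whole reads were recovered for 9770 of these genes (99.8%, tolerance 0.02 reads), and the depth relative to Ct replicate 1 ran from 0.91 to 1.17. The p-values cover the spread between these pools. Exact permutation tests, sign-flip tests and correlations were run in scipy 1.17.1 (Python 3.11.15, with pandas 2.3.3 and numpy 2.4.6), and matplotlib 3.10.9 drew the figures. The fit was tested on simulated data. Promoters were taken from RefSeq, and gene positions from the GENCODE annotation of GRCm38.

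The members and the gene and marker lists were chosen with earlier results of these data known. Named from the lists were genes with an unadjusted p under 0.05 or groups that did not overlap, the 2 genes with the highest mean of each list, and the 5 genes most like Hspa5. Sdf2l1 meets none of these rules and was named for its unadjusted limma p without Ct replicate 3. Symbols are those of the deposited table (Selk and Vimp are now called Selenok and Selenos). Alternatives were other pseudocounts, filters, scalings and variance models, limma-voom on the recovered reads, a replicate block, replicates 1 and 2 or 3 and 4 alone and leaving out each library.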

Additional observations from a re-analysis of the deposited data

Results flagged for a closer look

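Without passing the adjustment, the estimated effect of exposure on Xbp1 had opposite signs in replicates 1 and 2 and in replicates 3 and 4. It was -0.25 (log2) in replicates 1 and 2, where both CS-exposed libraries (29.1 and 29.2 FPKM) lay below both Ct libraries (33.7 and 35.6 FPKM), and 0.21 in replicates 3 and 4, a difference of 0.46 ± 0.17 (SE; limma with an interaction term, chosen after the data were seen, unadjusted p = 0.0252, adjusted p = 0.856). The effect on Atf4 was -0.01 in replicates 1 and 2 and 0.30 in replicates 3 and 4, a difference of 0.31 ± 0.12 (SE; limma, unadjusted p = 0.0271, adjusted p = 0.863). Over all genes tested 5.57% had such a p and none passed the adjustment. Replicates 3 and 4 hold Ct replicate 3, the library in which Xbp1 and Atf4 were lowest and the sum of lens epithelium markers highest. The 2 sets also differed in Xist. It was at or under 0.011 FPKM in replicates 1 and 2 and at 41.1 to 49.0 FPKM in replicates 3 and 4. The part of that library was not tested, and sex and other differences between the sets cannot be told apart. Among the 20 groups of 4 libraries, 2 for each member, no library lay far enough from the others to be set apart by Dixon's test at 95%.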

How the results depend on the processing

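No member had an adjusted p under 0.05 under any alternative. The number of members with an unadjusted p under 0.05, which was 2 as reported, was 0 with median centring, 0 without the trend of the variance, 1 with quantile normalization (Calr), 1 in replicates 1 and 2 (Xbp1, lower in CS-exposed mice) and 4 in replicates 3 and 4. When 1 library was left out it ran from 0 to 4, with 0 without Ct replicate 3 or 4 or without CS-exposed replicate 1, 2 or 3, 1 without CS-exposed replicate 4, and 4 without Ct replicate 2. Over the 20 alternatives the p of Hsp90b1 ran from 0.0185 to 0.220 and that of Calr from 0.0150 to 0.347, each under 0.05 in 11, and both kept their direction. The genes of the lists with such a p fell from 8 to 4 both in replicates 1 and 2 and in replicates 3 and 4 and numbered 6 to 9 with 1 library left out. With a replicate block in limma, which also takes up the difference in Xist between replicates 1 and 2 and replicates 3 and 4, the unadjusted p was 0.0439 for both Hsp90b1 and Calr and the lists held 11 such genes. The correlation of deviations of same-numbered libraries was 0.012, 0.078, 0.111 and 0.161 (all genes), so that the numbers were not taken as pairs. Limma-voom on the recovered reads called 3 members, Hsp90b1, Calr and Atf4 (limma-voom, unadjusted p = 0.020, 0.0270 and 0.0487).

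Signs turned, none at a p under 0.05, for Hspa5 (-0.035), Canx (-0.017), Atf4 (-0.011) and Ddit3 (-0.032) in replicates 1 and 2, for Xbp1 in replicates 3 and 4 (0.21) and without CS-exposed replicate 1 or 2 or Ct replicate 1 or 2 (0.0063, 0.0038, 0.025 and 0.051), for Canx without CS-exposed replicate 3 (-0.0074) and for Ddit3 without Ct replicate 3 (-0.045). The range of log2 fold changes with 1 library left out was -0.14 to 0.05 for Xbp1, -0.0074 to 0.08 for Canx and -0.04 to 0.20 for Ddit3. Correlations with Hspa5 turned for Xbp1 without the 2 farthest libraries (-0.62), and without Ct replicate 3 for Atf4 (-0.039) and Ddit3 (-0.11). In all, 163 of 200 member values kept their sign and their side of the threshold. The cause of these changes was not tested. With 4 pools in a group, the 95% interval of a member was as wide as -11.2 to 30.8% (Ddit3), and 256 reads or more stood behind every member's value. Counting error was not negligible for the low members, since its coefficient of variation at their lowest value (6.25% for Dnajb9, 5.66% for Ddit3 and 4.99% for Pdia4) was above that seen among the CS-exposed libraries (3.02%, 4.53% and 3.61%), and below that among the Ct libraries (9.70%, 20.0% and 8.52%).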
